A study of Mus musculus with 352 samples.

Results

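The integrated stress response was followed here through 10 genes of mouse tibialis anterior muscle: Atf4, Ddit3, Atf5, Chac1, Trib3, Sesn2, Asns, Psat1, Phgdh and Mthfd2. They were chosen by name, and each matched 1 row of a table of 14413 genes. The table holds RNA-seq libraries of 15 groups of mice, all of strain C57BL/6, with 22 to 25 mice per group. Whole muscle was taken at ZT 0, 4, 8, 12, 16 or 20 (zeitgeber time, hours in the daily light schedule), with 3 to 5 mice per group and time, and males and females in every group.

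The study's title concerns communication between brain and muscle in muscle aging. Bmal1 (listed as Arntl) encodes a core clock transcription factor. Wild-type mice are labelled WT. Mice labelled KO carry Bmal1(stopFL/stopFL), a gene blocked by a removable stop cassette, and Cre(-/-). The other genotypes carry the same blocked alleles plus a Cre transgene that reactivates the gene: Hsa-Cre(-/tg) in Mu-RE, where a skeletal actin promoter drives Cre in skeletal muscle; Syt10-Cre(-/tg) in Br-RE, where Cre is driven in the brain; and both in RE-RE. Reactivation therefore reaches the cells in which each promoter is active, and the other cells of these mice still lack Bmal1. The 5 genotypes were sampled at 10 to 12 weeks and at 26 weeks under ad libitum feeding (ALF). WT, Mu-RE and KO mice were also sampled at 26 weeks under time-restricted feeding (TRF). Wild-type mice of 85 to 116 weeks, labelled Old, were sampled under both feeding schedules.

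In the integrated stress response, kinases that sense amino acid shortage, misfolded protein, viral RNA or heme shortage phosphorylate the translation factor eIF2. General translation slows, while the mRNA of the transcription factor ATF4 is translated better. ATF4 then raises genes for amino acid uptake and synthesis, redox control and, under lasting stress, cell death, in part through DNA sites shared with C/EBP proteins. Much of the control of ATF4 acts on its translation, so its mRNA level is an incomplete readout of its activity. In skeletal muscle the pathway is known for its response to fasting, exercise, disuse and mitochondrial stress.

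The promoters of 3 of the 10 genes hold the composite C/EBP-ATF site, and they are shown because this site is the textbook link between ATF4 and its targets. The search used the RefSeq promoters of build GRCm38.p6, each from 250 bases before to 50 bases after a transcription start. All 10 genes matched, with 12 promoters. The letters searched were TTNCATCA and, for the other strand, TGATGNAA. A match was present in Chac1, Asns and Trib3, that is in 3 of the 12 promoters, and in 3.971% of 32817 promoters of all genes. The canonical E-box, CACGTG, which BMAL1 and its partner bind, was in 0 of the 12 promoters and in 7.149% of all of them. A match describes letters in this window and nothing about binding. The stretches below are on the strand of each gene, 5′ to 3′, with the match in capitals. Chac1 is shown from base -250 to -1 before its start (chr2:119350992-119351241, plus strand), Asns from -60 to -1 (chr6:7693210-7693269, minus strand) and Trib3 from 4 to 33 after its start (chr2:152344028-152344057, minus strand).
Chac1: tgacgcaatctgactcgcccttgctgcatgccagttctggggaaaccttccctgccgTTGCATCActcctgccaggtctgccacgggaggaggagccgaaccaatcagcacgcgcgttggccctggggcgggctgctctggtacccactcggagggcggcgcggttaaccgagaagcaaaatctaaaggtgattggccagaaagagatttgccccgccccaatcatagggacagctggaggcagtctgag
Asns: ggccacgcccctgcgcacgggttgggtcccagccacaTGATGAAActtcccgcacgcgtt
Trib3: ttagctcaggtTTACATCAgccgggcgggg

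Levels are deposited as log2 FPKM (fragments scaled to transcript length and library depth), so genes can be compared per length. Depth, recovered from the spacing of low values, ran from about 14650000 to 47550000 fragments per library, with a median of 22400000. Skeletal muscle markers (Acta1, Ckm, Myh4, Myh1, Tnnt3) were abundant in every library, with a summed level of at least 27830 FPKM. The clock target Dbp checked the genotypes: its mean log2 FPKM was 0.25 in KO and 3.04 in WT at 10 weeks, and 0.20 and 3.33 at 26 weeks. In Mu-RE the mean of Dbp was 2.90 at 10 weeks and 2.98 at 26 weeks. It was 0.64 in Br-RE and 3.47 in RE-RE at 10 weeks, and 0.78 and 3.52 at 26 weeks. Arntl itself was higher in KO (3.42 against 2.77 at 10 weeks), so its mean mRNA level did not serve as a check of its loss. Within each of 3 sets of libraries (47 Br-RE and RE-RE libraries at 10 weeks, 46 at 26 weeks, and the other 259) every gene has the same mean in males and females. In both Br-RE and RE-RE sets, each gene's mean also equals that of the remaining libraries of that age. Sex was therefore not compared, and Br-RE and RE-RE were compared in level only with each other.

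Per length, the 10 transcripts span a wide range. Atf4, the pathway's central transcription factor, was the most abundant, with a median of 85.9 FPKM over all mice. Atf5, a related factor that is also controlled at translation, followed at 17.5 FPKM. Chac1, which degrades glutathione, had a median of 10.4 FPKM, and Ddit3, which encodes the stress transcription factor CHOP, 9.63 FPKM. The other 6 were low. Mthfd2, a mitochondrial folate enzyme, had a median of 1.16 FPKM, and Sesn2, which encodes sestrin 2, an inhibitor of mTORC1 signalling, 0.897 FPKM. Asns (asparagine synthetase) stood at 0.401, Phgdh and Psat1, the first enzymes of serine synthesis, at 0.379 and 0.235, and Trib3, which encodes a pseudokinase that feeds back on ATF4, at 0.356 FPKM. At the median depth these 4 genes rest on 17 to 24.5 fragments per library, and Atf4 on 4539.

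The spread between mice of the same group and time also differed by gene. Its SD was 0.24 for Atf4 and Atf5 and 0.27 for Ddit3 on the log2 scale, below the median of 0.29 over all genes. Chac1 varied by far more: its SD was 1.04, while counting error at its depth would give 0.07, and 88.7% of all genes had a smaller SD. For Asns, Trib3, Psat1 and Phgdh the SD was 0.43 to 0.60, and counting error alone would give 0.29 to 0.35. 

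**Figure D1:**
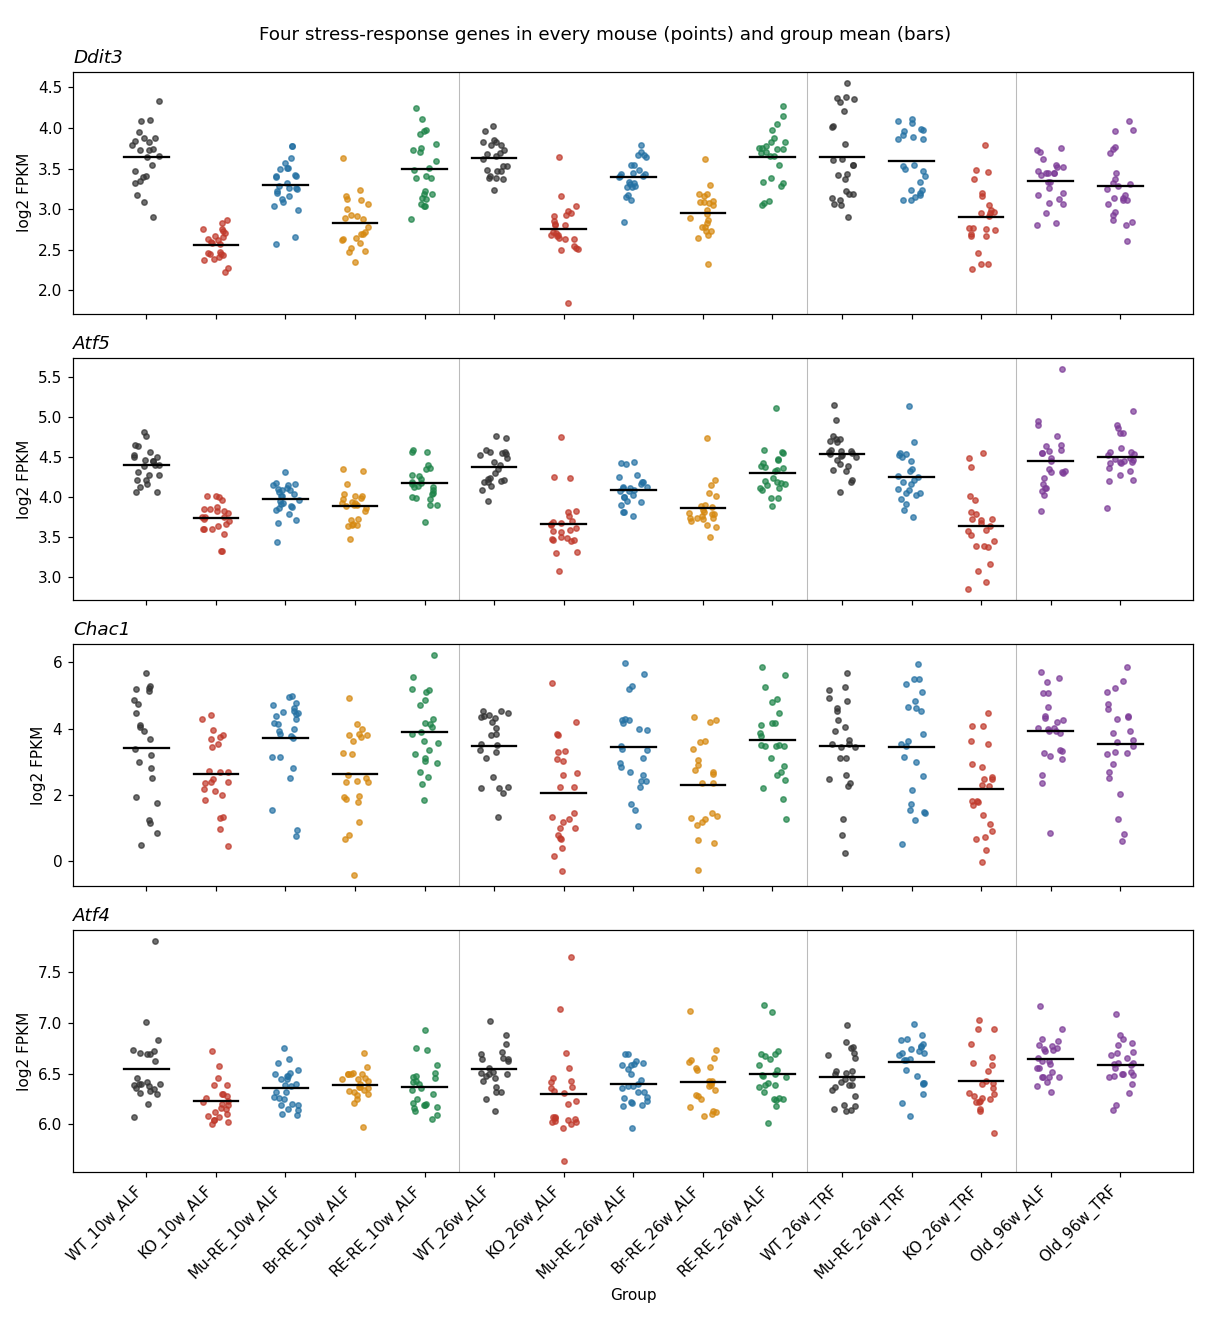
Log2 FPKM of Ddit3, Atf5, Chac1 and Atf4 (y axes) in every mouse, by group (x axis); points are mice and bars are group means. At 10 weeks all 23 KO mice lie below all 23 WT mice for Ddit3 and Atf5, while Chac1 spreads over more than 3 log2 units in every group. The share of all genes that separate in this way was not counted.

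Loss of Bmal1 was accompanied by lower levels of the pathway's transcription factors. At 10 weeks Ddit3 in WT mice ran from 2.90 through a median of 3.72 to 4.33 log2 FPKM, and in KO mice from 2.22 through 2.59 to 2.86. The groups did not overlap: the highest KO mouse was below the lowest WT mouse. The 24 h mean differed by -1.09 (SE 0.07, 2.13-fold lower, adjusted p = 1.77e-17 by limma with Benjamini-Hochberg adjustment over all genes, as for every adjusted p below). Atf5 ran from 4.07 through 4.40 to 4.81 in WT and from 3.33 through 3.75 to 4.01 in KO. Again no KO mouse reached the WT range, and the difference was -0.67 (SE 0.05, adjusted p = 7.72e-14). The share of all genes whose mice separate like this was not counted, for this comparison or those below. Atf4 was lower by a smaller step, with medians of 6.40 in WT and 6.20 in KO and overlapping groups. Its difference was -0.32 (SE 0.08, adjusted p = 0.00122).

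Among the targets at 10 weeks, Trib3 fell by 0.57 (SE 0.17, adjusted p = 0.00527) and Mthfd2 fell by 0.34 (SE 0.10, adjusted p = 0.00775). The Mthfd2 call was lost without the third mouse of each time point (-0.30, adjusted p = 0.0677). Chac1 differed by -0.72 (SE 0.32) with an adjusted p of 0.0792. The differences of Asns, Psat1 and Phgdh were -0.09, -0.05 and -0.19, and that of Sesn2 was 0.12, and none passed. In all, 5 of the 10 genes fell and 0 rose, where 19.2% of all genes fell and 17.6% rose. The median difference was -0.33 over the 10 genes and 0.00 over all genes.

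At 26 weeks the same comparison gave 4 lower genes and 1 higher gene, against 19.9% and 22.1% of all genes. Ddit3 fell by 0.86 (SE 0.08, adjusted p = 2.23e-12): 23 of 24 KO mice lay below the lowest of the 22 WT mice. Atf5 fell by 0.71 (SE 0.08, adjusted p = 2.69e-09), with 21 of the 24 KO mice below the WT range. Chac1 ran from 1.34 through 3.66 to 4.53 in WT and from -0.29 through 1.85 to 5.36 in KO. The KO mice thus reached both below and above the WT range, with 11 of them below it. Chac1 fell by 1.43 (SE 0.35, 2.69-fold, adjusted p = 9.45e-04). Atf4 fell by 0.25 (SE 0.10, adjusted p = 0.039). That call was lost in 4 of 13 other settings, with adjusted p up to 0.213: without the first, the second or the fourth mouse of each time point, and with the length slope of the libraries (the slope of log2 level on exon length) as a covariate. Sesn2 rose by 0.41 (SE 0.08, adjusted p = 8.49e-05), the 1 member with the opposite sign among those called. Mthfd2 differed by 0.14 (SE 0.11, adjusted p = 0.30) and Trib3 by -0.29 (SE 0.18, adjusted p = 0.18).

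The change of the KO effect between ages was tested as an interaction. It passed for 1 of the 10 genes, where 14.7% of all genes passed: the Mthfd2 difference moved from -0.34 at 10 weeks to 0.14 at 26 weeks, an interaction of 0.48 (SE 0.15, adjusted p = 0.0169). It was lost without the first, the second or the third mouse of each time point, with values of 0.38 to 0.47. For Ddit3 the interaction was 0.23 (SE 0.10, adjusted p = 0.13) and for Chac1 -0.70 (SE 0.48, adjusted p = 0.36).

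Cell type markers moved in the same comparison, where 19.2% of all genes fell and 17.6% rose at 10 weeks. At 26 weeks 19.9% of all genes fell and 22.1% rose. All 4 measured macrophage and lymphoid markers of 5 listed fell in KO at 10 weeks, where their summed level ran from 6.55 to 31.7 FPKM in KO and from 15.1 to 44.8 FPKM in WT, and 3 of 4 endothelial markers rose (42.8 to 77.8 FPKM in KO, 32.5 to 63.8 FPKM in WT). Of 4 fibroblast markers 2 fell and of 4 Schwann cell and nerve markers 3 rose. Among 5 muscle markers 4 rose, while Myh1, a fast myosin gene, fell by 1.04. At 26 weeks 3 of the 4 macrophage markers and 2 of the 4 fibroblast markers fell, and all 4 endothelial and all 4 adipocyte markers rose. The faintest macrophage marker, Adgre1, had a mean log2 FPKM of -2.44 in KO and -1.78 in WT at 10 weeks. In bulk muscle fewer cells of a type cannot be told apart from less RNA per cell. Their part in the differences of the 10 genes was not tested.

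**Figure D2:**
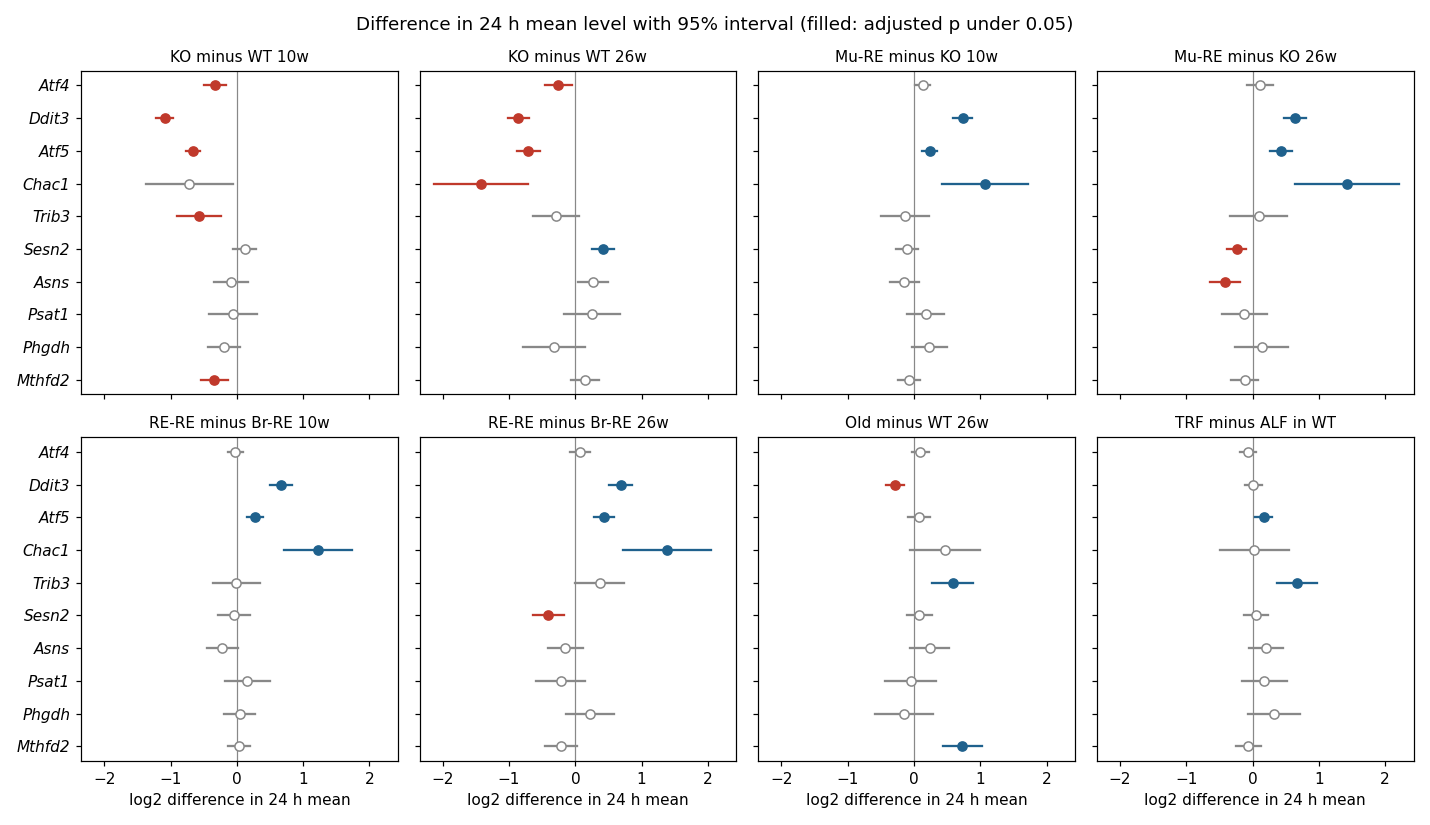
Log2 difference in 24 h mean level (x axes) for the 10 genes (y axes) in 8 comparisons; points are estimates, lines 95% intervals, filled symbols have an adjusted p under 0.05, red for lower and blue for higher. Ddit3 and Atf5 are lower in KO at both ages and higher with muscle Bmal1 in all 4 comparisons of restored mice, and Chac1 is higher in those 4.

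Restoring Bmal1 in muscle was accompanied by higher Ddit3, Atf5 and Chac1. At 10 weeks Ddit3 in Mu-RE ran from 2.57 through 3.29 to 3.78, and 23 of 25 Mu-RE mice lay above the highest KO mouse. It rose by 0.73 against KO (SE 0.07, adjusted p = 6.43e-12). Atf5 rose by 0.24 (SE 0.05, adjusted p = 6.91e-04), with 12 of 25 above, and Chac1 by 1.07 (SE 0.32, adjusted p = 0.00893). The Chac1 call was lost without the first or the second mouse of each time point (0.88 and 0.81). These 3 of 10 rose and 0 fell, against 14.9% and 13.9% of all genes. The group mean of Ddit3 was 2.56 in KO, 3.29 in Mu-RE and 3.64 in WT, and that of Atf5 3.74, 3.97 and 4.40, so both stood between KO and WT in Mu-RE. The difference between Mu-RE and WT was not tested.

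At 26 weeks the same 3 genes rose: Ddit3 by 0.64 (SE 0.08, adjusted p = 1.55e-08), Atf5 by 0.43 (SE 0.08, adjusted p = 3.00e-05) and Chac1 by 1.42 (SE 0.39, adjusted p = 0.00407). The groups overlapped more than at 10 weeks for Ddit3, with 5 of 24 Mu-RE mice above the KO range, and 0 of 24 lay above it for Atf5. The KO ranges reached far up at this age. The highest KO mouse stood at 3.64 for Ddit3, beside a median of 2.72, and at 4.75 for Atf5, beside 3.60. Asns fell by 0.41 (SE 0.12, adjusted p = 0.00433) and Sesn2 by 0.24 (SE 0.07, adjusted p = 0.00946), the latter lost without the first, the third or the fourth mouse of each time point (adjusted p of 0.0501 to 0.0559). The background was 14.9% of genes higher and 14.4% lower. Atf4 differed by 0.13 (SE 0.05, adjusted p = 0.0673) at 10 weeks and by 0.11 (SE 0.10, adjusted p = 0.42) at 26 weeks. All 4 endothelial markers fell in Mu-RE against KO at 10 weeks (summed level 40.5 to 68.7 FPKM in Mu-RE, 42.8 to 77.8 FPKM in KO), and their part in these differences was not tested. At 26 weeks 0 markers of the non-muscle lists passed in limma. The KO mice are shared between these comparisons and those against WT, so opposite signs are not independent of each other.

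RE-RE and Br-RE give a further contrast for muscle Bmal1, in other mice and with brain Bmal1 present on both sides. At 10 weeks Chac1 ran from -0.41 through 2.51 to 4.91 in Br-RE and from 1.85 through 3.87 to 6.21 in RE-RE. It was higher in RE-RE by 1.23 (SE 0.26, 2.35-fold, adjusted p = 1.94e-04), with overlapping groups. Ddit3 was higher by 0.67 (SE 0.08, adjusted p = 7.33e-09), with 9 of 24 RE-RE mice above the Br-RE range, and Atf5 by 0.28 (SE 0.06, adjusted p = 2.95e-04). No other member passed: 3 rose and 0 fell, against 13% and 13.7% of all genes. At 26 weeks the differences were 0.68 for Ddit3 (SE 0.09, adjusted p = 1.42e-08), 0.43 for Atf5 (SE 0.07, adjusted p = 6.61e-06) and 1.39 for Chac1 (SE 0.33, adjusted p = 9.24e-04). Ddit3 lay above the Br-RE range in 16 of the 24 RE-RE mice. Sesn2 was lower by 0.41 (SE 0.12, adjusted p = 0.00546), a call lost without the first or the fourth mouse of each time point (-0.30 and -0.34), so 3 rose and 1 fell, against 15.2% and 15.6%. Atf4 did not pass at either age (-0.02 and 0.07), with 95% intervals of -0.14 to 0.09 and -0.08 to 0.22. No macrophage, endothelial or adipocyte marker passed in these contrasts, while 2 of 4 nerve markers rose at 10 weeks, and 1 nerve marker and the fibroblast marker Dcn rose at 26 weeks.

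Other genes of the pathway, in lists kept apart from the 10, showed mixed directions. Of 4 eIF2 kinases, Eif2ak2 (PKR, the sensor of double-stranded RNA) fell in KO by 0.27 at 10 weeks and by 0.24 at 26 weeks, and the genes of PERK and GCN2 (Eif2ak3, Eif2ak4) did not pass. Eif2ak1 (HRI, the heme sensor) rose by 0.19 at 26 weeks. Ppp1r15b, a subunit that directs dephosphorylation of eIF2, fell in KO by 0.32 and 0.33, and Ppp1r15a (GADD34) by 0.84 at 10 weeks. Of 18 further ATF4 targets measured (21 listed), 2 rose and 2 fell in KO at 10 weeks, and 4 rose and 7 fell at 26 weeks. Of all genes, 17.6% rose and 19.2% fell at 10 weeks, and 22.1% rose and 19.9% fell at 26 weeks. Cebpg, the gene of a partner of ATF4 at composite sites, fell by 0.62 and 0.66. Nupr1, a stress-induced chromatin factor, fell by 0.76 and 1.25. Ddit4 (REDD1, an inhibitor of mTORC1) rose at 26 weeks, from a mean of 1.72 in WT to 3.34 in KO. Fgf21, a stress hormone, rose by 3.43 at 26 weeks, from a mean log2 FPKM of -5.92 in WT to -2.46 in KO, levels at which few fragments are counted. Aldh1l2, a mitochondrial folate enzyme, fell by 0.85 at 26 weeks. Against KO, 4 of the 18 targets rose and 2 fell in Mu-RE at 10 weeks, where 14.9% of all genes rose and 13.9% fell. At 26 weeks 5 rose and 3 fell, against 14.9% and 14.4% of all genes. Against Br-RE, 3 rose and 1 fell in RE-RE at 10 weeks, where 13% of all genes rose and 13.7% fell. At 26 weeks 6 rose and 1 fell, against 15.2% and 15.6%. In Mu-RE against KO at 26 weeks Aldh1l2 rose by 0.86, Nupr1 by 0.70 and Cebpg by 0.51, and Fgf21 and Ddit4 fell by 2.59 and 0.98.

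Of 12 aminoacyl-tRNA synthetases, 5 fell and 0 rose in KO at 10 weeks, led by Sars (-0.40) and Aars (-0.36), and 4 rose and 2 fell at 26 weeks. Over all genes 19.2% fell and 17.6% rose at 10 weeks, and 22.1% rose and 19.9% fell at 26 weeks. The endoplasmic reticulum (ER) stress list held 8 genes, of which 4 fell at 10 weeks. Herpud1, which serves ER-associated degradation, fell by 0.80 and 0.83 at the 2 ages, Xbp1, a transcription factor of the unfolded protein response, by 0.57 and 0.41, and the co-chaperone gene Dnajb9 by 0.55 and 0.30. In Mu-RE against KO, Herpud1 rose by 0.80 and 0.81 and Xbp1 by 0.46 and 0.33. The chaperone genes Hspa5, Calr and Pdia4 did not pass in KO against WT at either age, and Sdf2l1 rose by 0.41 at 26 weeks.

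Age was compared in wild-type mice. Between WT mice of 10 and 26 weeks only Asns passed, falling by 0.37 (SE 0.13, adjusted p = 0.0258), so 1 of 10 fell and 0 rose against 15.5% lower and 15.5% higher. The call was lost when the second or the fourth mouse of each time point was left out. All 4 endothelial markers and 2 of 4 fibroblast markers fell in the same comparison, and their part in it was not tested. In Old against WT at 26 weeks, under ad libitum feeding, 2 rose and 1 fell, against 11% and 10.2% of all genes. Mthfd2 ran from -0.29 through 0.14 to 1.27 at 26 weeks and from 0.30 through 0.83 to 3.41 in Old. The groups overlapped, with 4 Old mice above the WT range, and the difference was 0.73 (SE 0.14, 1.66-fold, adjusted p = 3.13e-04). The highest Old mouse stood apart, and the call held without it. Trib3 rose by 0.58 (SE 0.15, adjusted p = 0.00572), with 10 of 24 Old mice above the WT range, a call lost without the third mouse of each time point (0.53, adjusted p = 0.0978). Ddit3 fell by 0.28 (SE 0.07, adjusted p = 0.00221). Of the 18 further ATF4 targets 3 rose and 0 fell: Cebpb, a C/EBP transcription factor gene, rose by 1.36, Slc7a5, an amino acid transporter gene, by 0.84 and Fgf21 by 3.42 (mean log2 FPKM -5.92 to -2.50). All 4 fibroblast markers fell in Old, with a summed level of 15.6 to 174 FPKM against 54.1 to 181 FPKM in WT, and their part in these differences was not tested.

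Time-restricted feeding moved the mean level of few of the 10 genes. In WT mice Trib3 rose by 0.67 (SE 0.15, 1.59-fold, adjusted p = 6.90e-04): it ran from -3.01 through -1.46 to -0.91 under ad libitum and from -2.39 through -0.89 to 0.06 under restricted feeding, with 13 of 24 mice above the ad libitum range. In the same comparison 3 of 4 endothelial, 3 of 4 nerve and 2 of 4 adipocyte markers rose and 1 of 4 macrophage markers fell. The summed endothelial level ran from 14.8 to 59.6 FPKM under ad libitum and from 26.6 to 70.1 FPKM under restricted feeding, that of the nerve markers from 2.93 to 13.5 and from 4.52 to 14.95, that of the adipocyte markers from 0.605 to 33.8 and from 2.04 to 34.7, and that of the macrophage markers from 12.4 to 37.1 and from 12.0 to 31.7 FPKM. Their part in the Trib3 difference was not tested. Atf5 rose by 0.17 (SE 0.07, adjusted p = 0.0435), a call lost in 6 of 12 other settings. These 2 rose and 0 fell, against 18% and 14.9% of all genes. Of the further ATF4 targets Cebpb rose by 1.25 and Ddit4 by 0.98. In Mu-RE Atf4 rose by 0.21 (SE 0.05, adjusted p = 0.0097) and 0 fell, against 6.26% and 6.04%; the call was lost with the length slope as a covariate and when the first or the second mouse of each time point was left out. In KO 0 of 10 passed in limma, against 3.82% of genes higher and 6.21% lower, with 1 of the 10 at an unadjusted p under 0.05. In Old mice 0 of 10 passed, with 0 at an unadjusted p under 0.05, against 0.0347% higher and 0.0139% lower. Trib3 differed by -0.05 (SE 0.18) in KO, and its feeding effect was smaller in KO than in WT by 0.71 (SE 0.23, adjusted p = 0.0222). That interaction was lost whichever mouse of each time point was left out (-0.81 to -0.56, adjusted p of 0.0633 to 0.131). This was the 1 of 10 genes whose feeding effect differed between KO and WT, against 19.7% of all genes. For Old against WT the interaction passed for 0 of 10, with 1 at an unadjusted p under 0.05, against 1.03%; Trib3 gave -0.54 (SE 0.22, adjusted p = 0.18). The endothelial and the Schwann cell and nerve markers also differed in feeding effect between KO and WT, with all 4 of each lower, and their part in the Trib3 result was not tested. Over the 24 libraries of WT under restricted feeding the summed endothelial level ran from 26.6 to 70.1 FPKM and that of the nerve markers from 4.52 to 14.95 FPKM. In the 23 KO libraries under restricted feeding these ran from 19.8 to 67.0 and from 2.09 to 11.6 FPKM. Under ad libitum feeding they ran from 29.8 to 96.1 and from 3.37 to 16.35 FPKM in KO at 26 weeks.

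Over the day, Chac1 and Ddit3 made up 9 of the 10 rhythms called among the members. A 24 h cosine was fitted to each gene in each group, and 10 of the 150 combinations passed: Chac1 in 5 groups, Ddit3 in 4 and Atf4 in 1. Amplitudes are from mean to peak on the log2 scale. In WT under restricted feeding Chac1 averaged 1.80 at ZT 0, 3.61 at ZT 4, 4.89 at ZT 8, 4.85 at ZT 12, 3.01 at ZT 16 and 2.64 at ZT 20. The 4 mice at ZT 8 lay between 4.62 and 5.17, above all 4 mice at ZT 0, which lay between 0.25 and 3.66. The amplitude was 1.58 (SE 0.24), or 8.91-fold from trough to peak, and the cosine peaked at ZT 9.8 (adjusted p = 2.04e-04). Ddit3 in the same mice ran the other way, from 3.06 at ZT 8 to 4.19 at ZT 16 and 4.18 at ZT 20. Its amplitude was 0.63 (SE 0.07, 2.40-fold), and its peak fell at ZT 18.2 (adjusted p = 3.27e-06). Atf4 in these mice had an amplitude of 0.22 (SE 0.05) and a peak at ZT 16.9 (adjusted p = 0.00759). With 29.6% of all genes rhythmic in this group, 3 of 10 is near the background.

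**Figure D3:**
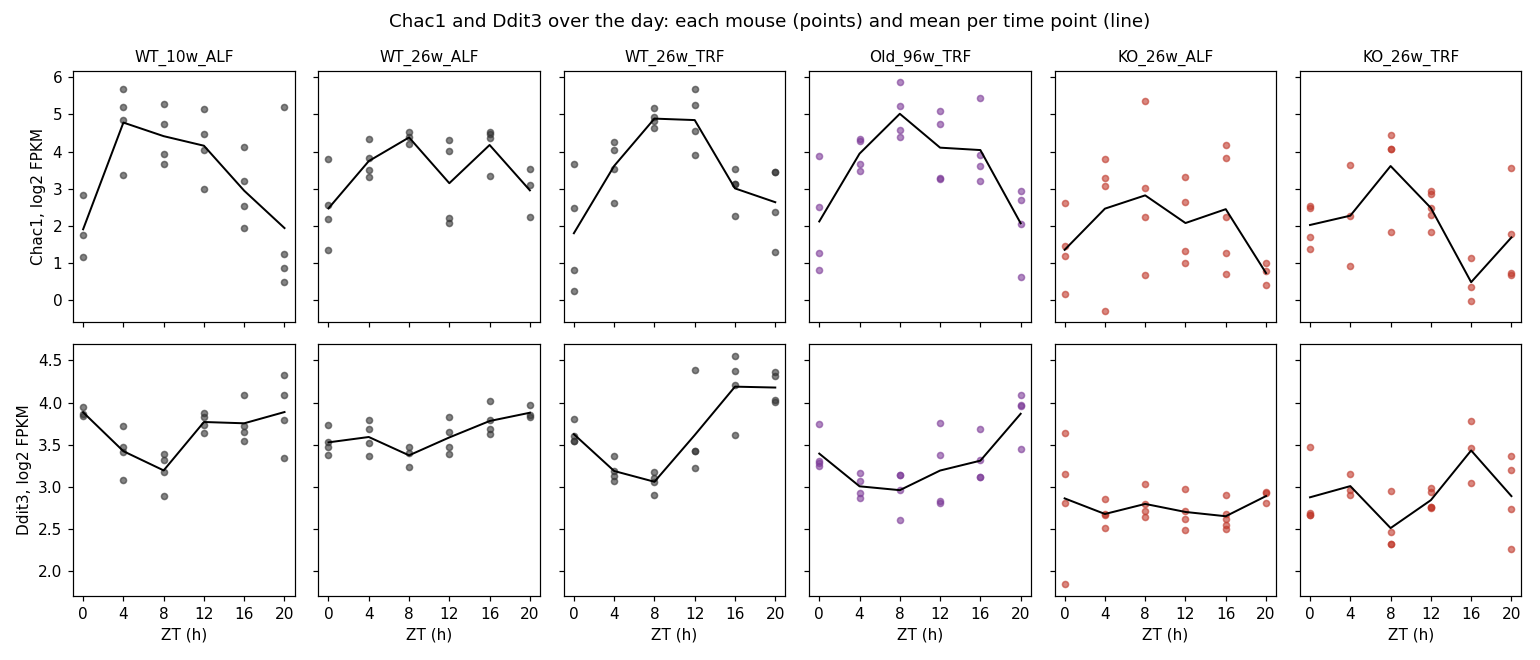
Log2 FPKM of Chac1 (top row) and Ddit3 (bottom row) against ZT (hours) in 6 groups; points are mice and lines join the means of each time point. In WT under restricted feeding Chac1 is highest at ZT 8 and 12 (4.89 and 4.85), where Ddit3 at ZT 8 is lowest (3.06).

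The phases recurred across the groups in which these 2 genes passed. Fits that did not pass peaked near these phases in some groups, such as Chac1 in WT at 26 weeks (ZT 10.2). In others they peaked elsewhere, such as Chac1 in KO under restricted feeding (ZT 6.7) and Ddit3 in Br-RE at 10 weeks (ZT 23.8). Chac1 passed in WT at 10 weeks (amplitude 1.46, SE 0.33, peak ZT 8.1), Br-RE at 10 weeks (1.46, SE 0.22, peak ZT 11.7), Mu-RE under restricted feeding (1.53, SE 0.35, peak ZT 9.0) and Old under restricted feeding (1.43, SE 0.28, peak ZT 9.7). Ddit3 passed in RE-RE at 10 weeks (0.39, SE 0.08, peak ZT 17.02), Mu-RE under restricted feeding (0.41, SE 0.06, peak ZT 20.7) and Old under restricted feeding (0.38, SE 0.08, peak ZT 19.6). Where called, Chac1 thus peaked between ZT 8.1 and 11.7 and Ddit3 between ZT 17.02 and 20.7. Against these counts, 4.11% of all genes were rhythmic in WT at 10 weeks, 19.3% in Br-RE at 10 weeks, 0.493% in RE-RE at 10 weeks, 5.17% in Mu-RE and 4.55% in Old under restricted feeding. The Br-RE mice lack Bmal1 in muscle, and Chac1 there averaged 1.18 at ZT 0 and 4.17 at ZT 12. Leaving out 1 mouse of each time point, or another setting, ended the call in 4 of 12 settings for Chac1 in WT at 10 weeks, in 5 of 11 for Ddit3 in RE-RE, in 4 and 1 of 11 for Chac1 and Ddit3 in Mu-RE under restricted feeding, in 3 of 11 for each in Old under restricted feeding, in 2 of 11 for Atf4, and in none of 11 for Chac1 in Br-RE and for Chac1 and Ddit3 in WT under restricted feeding.

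None of the 10 passed in limma in the other 9 groups, where Chac1 had an amplitude of 0.24 to 1.11 in them. At an unadjusted p under 0.05, 3 of 10 stood beside 2150 of 14413 genes in Br-RE at 26 weeks (0.513% of all genes called), and 5 of 10 beside 3992 genes in KO under restricted feeding (2.5% called). The count was 1 of 10 beside 1057 genes in WT at 26 weeks (0.819% called), beside 1705 genes in Old under ad libitum feeding (1.04% called) and beside 837 genes in KO at 26 weeks (0% called). It was 0 of 10 beside 523 genes in KO at 10 weeks (0.0347% called), 1564 in Mu-RE at 10 weeks (0.0416% called), 1550 in RE-RE at 26 weeks (0.506% called) and 1629 in Mu-RE at 26 weeks (0% called). In WT at 26 weeks under ad libitum feeding Chac1 had an amplitude of 0.59 and a peak at ZT 10.2, and Ddit3 0.20 and ZT 18.6, beside ZT 9.8 and ZT 18.2 under restricted feeding.

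**Figure D4:**
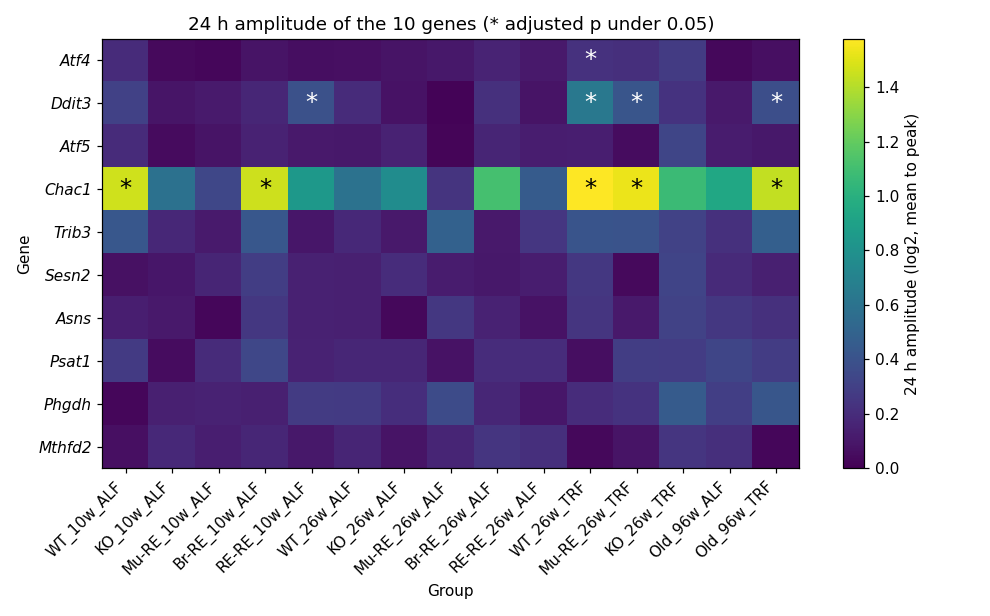
24 h amplitude (color, log2 units from mean to peak) of the 10 genes (rows) in the 15 groups (columns); asterisks mark an adjusted p under 0.05. Chac1 has the brightest row, from 0.24 to 1.58, and asterisks fall on Chac1, Ddit3 and 1 cell of Atf4.

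Differences in rhythm were tested directly in 9 contrasts, and 1 of the 90 results passed. Ddit3 differed between restricted and ad libitum feeding in WT, by a vector of amplitude 0.42 (SE 0.09, adjusted p = 0.0286), where 2.23% of all genes differed. That call was lost in 5 of 11 other settings, with adjusted p up to 0.25. Chac1 gave an adjusted p of 0.22 in the same contrast. No member passed in limma in the other 8 contrasts. At an unadjusted p under 0.05, KO against WT at 10 weeks had 3 of 10 members beside 991 of 14413 genes (0.395% of all genes called), and at 26 weeks 1 beside 880 (0.104% called). RE-RE against Br-RE had 2 beside 1871 genes at 10 weeks (0.132% called) and 0 beside 1378 at 26 weeks (0.0624% called). Br-RE against KO had 2 beside 2516 genes at 10 weeks (0.354% called) and 1 beside 1235 at 26 weeks (0% called). Feeding in KO had 0 beside 1197 genes (0% called), and Old against WT 0 beside 275 (0% called). A rhythm passing in one group and not in another is thus not shown to differ, apart from Ddit3 with feeding in WT.

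Between mice of the same group and time, Ddit3 and Chac1 were negatively correlated. Each value was set against the mean of its group and time point, and all 45 pairs of members were correlated over all mice of the 15 groups, with permutation within group and time (two-sided, 100000 resamples, Benjamini-Hochberg over the 45 pairs). Ddit3 and Chac1 gave a Pearson r of -0.51 (adjusted p = 0.00015) and a Spearman rho of -0.49 (adjusted p = 0.00015), both at the smallest p the resamples can give. Without the 2 mice farthest from the median of Ddit3, r was -0.51. For each pair here and below, the 2 farthest mice were chosen by the first gene named. Extreme values of the second gene were not left out in this way. Within the 3 sets of libraries that were centred together r was -0.48 (259 libraries), -0.69 (47) and -0.49 (46). In each of the 15 groups taken alone r was negative, from -0.71 to -0.17 with a median of -0.55. As a description, of 14412 other genes none had a lower r with Chac1 than Ddit3, and 1 had a lower r with Ddit3 than Chac1; that gene was Fzd4, a Wnt receptor gene, at -0.53, named after its value was seen. Ddit3 and Chac1 were thus both higher with muscle Bmal1. Between mice of the same group and time their correlation was negative; it was not tested within single groups, and in KO at 10 weeks r was only -0.17.

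**Figure D5:**
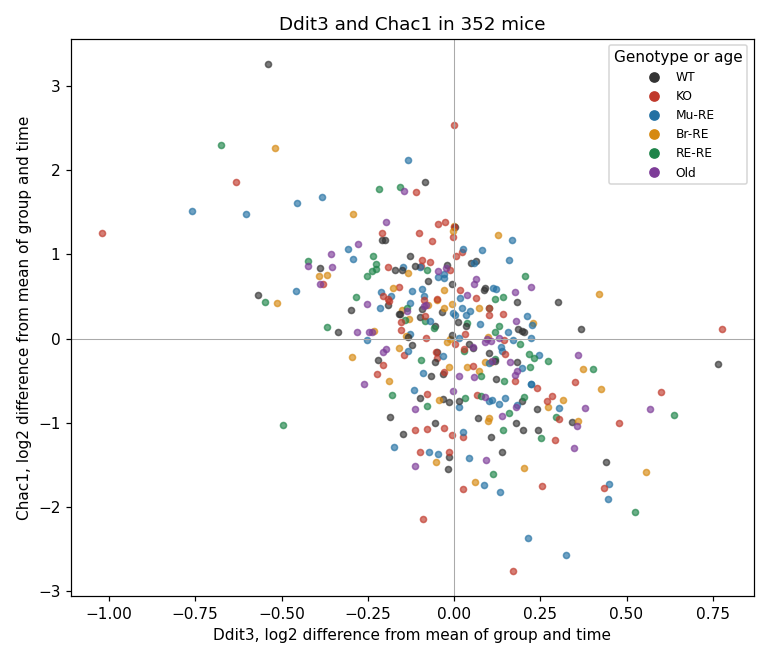
Ddit3 (x axis) and Chac1 (y axis) in every mouse, each as log2 difference from the mean of its group and time point; color gives genotype or age. The cloud slopes downward with r = -0.51, and points of every color lie along it.

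Of the 45 pairs, 17 were positive and 4 negative at an adjusted p under 0.05 of the Pearson r. By Spearman rho, 16 pairs passed. How many pairs of other genes would pass was not counted. Fewer of the 45 passed with the length slope of the libraries as a covariate, as given at the end. Among the amino acid and serine enzymes, r was 0.34 for Psat1 and Phgdh (rho 0.37), 0.27 for Asns and Psat1 (rho 0.29), both with adjusted p = 0.00015, and 0.18 for Asns and Phgdh (rho 0.18, adjusted p = 0.0125). Without the 2 farthest mice these were 0.34, 0.27 and 0.18. In the set of 46 libraries Asns and Phgdh gave -0.06, so that relation was not seen there. In the sets of 259, 47 and 46 libraries Psat1 and Phgdh gave 0.33, 0.57 and 0.33. Of all other genes, 0.111% had a higher r with Psat1 than Phgdh had, 1.71% had a higher r with Phgdh than Psat1 had, and 1.01% had a higher r with Asns than Psat1 had. The highest r with Psat1 over all genes was that of the macrophage marker Cd68 (0.43), and its part in the relation of the enzymes was not tested. Atf5 and Mthfd2 gave 0.30 (rho 0.22, adjusted p = 4.50e-04; 0.24 without the 2 farthest mice), and 0.36, -0.15 and 0.16 in the 3 sets of libraries, so the relation was not seen in the set of 47. Of 14412 other genes, 432 had a higher r with Atf5 than Mthfd2 had.

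The length slope of the libraries bore differently on the 4 pairs of Atf4 that passed. Over all mice Atf4 had r = -0.60 with that slope, Ddit3 -0.42 and Sesn2 0.35, while Chac1 had 0.03. Atf4 and Ddit3 correlated at 0.28 (rho 0.22, adjusted p = 3.38e-04; 0.27 without the 2 farthest mice; 0.29, 0.52 and 0.10 in the 3 sets), where 18.7% of all other genes had a higher r with Atf4 than Ddit3 had, and at 0.04 once the slope was taken out of both. Atf4 and Sesn2 gave -0.23 (rho -0.22, adjusted p = 0.00103; -0.22 without the 2 farthest mice; -0.17, -0.47 and -0.33 in the 3 sets), and -0.02 with the slope taken out. Ddit3 and Chac1 gave -0.54 with it taken out, and Psat1 and Phgdh 0.34. Atf4 with Atf5 and with Trib3 stayed about as large with the slope taken out, at 0.21 and 0.18. As measured, Atf4 and Atf5 gave 0.23 (rho 0.12, adjusted p = 0.0106; 0.18 without the 2 farthest mice; 0.23, -0.02 and 0.42 in the 3 sets), and the adjusted p of rho was 0.13. Atf4 and Trib3 gave 0.17 (rho 0.14, adjusted p = 0.0453; 0.13 without the 2 farthest mice; 0.28, -0.09 and -0.20 in the 3 sets), and the adjusted p of rho was 0.0558. Neither was seen in the set of 47, and that with Trib3 not in the set of 46. Atf4 and Chac1, factor and target, gave r = 0.03 (rho -0.01, adjusted p = 0.74; -0.01 without the 2 farthest mice; 0.04, -0.29 and 0.19 in the 3 sets).

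Across the 90 means of group and time, the genes most like each member in pattern were found among 9830 non-members with a mean log2 level of at least 0. For Ddit3 they were Slc16a1, the lactate transporter gene MCT1 (r = 0.90), Pfn2 and Lrrcc1 (both 0.81). For Atf5 they were Cenpb (0.89), Npepl1 and Pomgnt1 (both 0.87), for Chac1 Flvcr1 (0.77), Mfsd1 and Slc43a1, an amino acid transporter gene (both 0.76), and for Atf4 Nob1, Snhg5 (both 0.75) and Asb11 (0.73). Trib3 was most like Tmem201, Sun2 and the alanyl-tRNA synthetase gene Aars (all 0.69). Sesn2 went with Usp5 (0.76), Ube2o and Camk2b (both 0.75), and Mthfd2 with Anxa7 (0.68), Uvrag (0.67) and Serpinb6a (0.65). The low genes had looser matches: Phgdh with Islr (0.66), Nbl1 and Lrp1 (both 0.62), Asns with Tuba1b (0.58), Fyn (0.56) and Clic4 (0.55), and Psat1 with Tpst1, Tmem176a (both 0.49) and Eef1a1 (0.48). Among the members themselves the highest r over these means were 0.68 for Trib3 and Atf5, 0.60 for Atf4 and Ddit3, and 0.59 for Ddit3 and Atf5. The means share libraries of the same groups and carry the group differences described above. They also include Br-RE and RE-RE, whose gene means equal those of the remaining libraries of their age. These r therefore mix levels that cannot be compared between the sets of libraries.

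Without Br-RE and RE-RE, which form the 2 smaller of the 3 sets of libraries described above, 11 groups could be ordered by their mean log2 level. Ddit3 was highest in WT under restricted feeding and in WT at 10 weeks (both 3.64) and lowest in KO at 10 weeks (2.56), Atf5 highest in WT under restricted feeding (4.54) and lowest in KO under restricted feeding (3.65), and Chac1 highest in Old under ad libitum feeding (3.93) and lowest in KO at 26 weeks (2.05). Atf4 and Mthfd2 were highest in Old under ad libitum feeding (6.64 and 0.97), and Trib3 in Old under restricted feeding (-0.88). Sesn2 was highest in KO at 26 weeks (0.11) and lowest in WT at 10 weeks (-0.35). Asns ran from -1.62 to -1.12, Psat1 from -2.36 to -1.80 and Phgdh from -1.84 to -1.16. Of the neighbors in these orders, 1 pair differed by more than the larger SD of its 2 groups: Atf5 in Mu-RE (3.97) and KO (3.74) at 10 weeks. The other neighbors differed by less than that SD. It measures the spread of single mice, so this is no test of whether the group means differ.

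By GENCODE M21 annotation of build GRCm38, 2 members share exon sequence with a gene on the opposite strand, and the sources used here do not say whether counting used strand. Ddit3 (ENSMUSG00000025408, chr10:127290774-127296288, plus strand) shares 68 of its 1713 exon bases with Mars, 13 with Gm4189, both on the opposite strand, and 105 with a second annotated Ddit3 gene on its own strand. Atf5 (ENSMUSG00000038539, chr7:44812256-44816658, minus strand) shares 82 of 1993 exon bases with Nup62 and with Il4i1. How far fragments of these other genes enter the levels of Ddit3 and Atf5 was not tested. Chac1 (ENSMUSG00000027313) lies at chr2:119351229-119354381 on the plus strand and Atf4 (ENSMUSG00000042406) at chr15:80255184-80257541 on the plus strand, and no other annotated gene overlaps the exons of either.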

How the data were processed

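Tibialis anterior RNA of each mouse was sequenced in pairs; 1 table of log2 FPKM values was used. Per the submitters' processing notes, which give no roles or order, the build was GRCm38 and the tools included HISAT2 2.1.0 and featureCounts 1.6.2, besides Trim Galore 0.5.0, FastQC 0.11.8, limma 3.44.1 and, also by the authors, edgeR 3.30.0. The authors deposited log2 FPKM values. That each centred set has equal sex means was found in the values. Depth was estimated from the steps between low values (94.6% whole within 0.1 fragments in the median library).

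The 10 genes and the lists were chosen with earlier results of these data known. Groups came from the labels. In limma 3.58.1 (R 4.3.3; trend and robust), all 14413 genes were fitted in the groups compared, with level, 24 h cosine and sine per group and sex, with no filter on low values. P-values were adjusted over all genes by Benjamini-Hochberg and called at 0.05. The scripts were tested on simulated data. The text names all 10 genes, at most 4 called genes per list and comparison, the 3 most alike genes, Arntl and Dbp. Cebpg at 26 weeks, Fzd4, the markers and the genes named as not passing fall outside that rule and were named after their values were seen. Each library was taken as 1 mouse, and p-values measure the spread between these samples. The alternatives tried were a minimum mean log2 of 0, 1 FPKM added, no sex term, time as a factor, medians subtracted, the length slope, plain limma, a replicate block and mice left out. Slc7a11, Mthfd1l, Gdf15 and Ptprc, also listed, were not analysed here.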

Additional observations from a re-analysis of the deposited data

Results flagged for a closer look

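The 2 results named here passed a test of the difference between groups itself, each as 1 of the 10 genes. Of all genes, 14.7% passed for the KO effect by age and 19.7% for the feeding effect in KO against WT. The Mthfd2 difference between KO and WT was higher at 26 than at 10 weeks by 0.48 (SE 0.15) on the log2 scale, with opposite signs at the 2 ages, and was lost in 3 of 13 other settings. The feeding effect on Trib3 in KO minus that in WT was -0.71 (SE 0.23). It was lost in 4 of 11 other settings, those that left out a mouse of each time point. Both were tested by limma interactions over 4 groups.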

How the results depend on the processing

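Of the level calls, those of Ddit3 and Atf5 held in the 6 genotype contrasts under every alternative tried, and no result reversed. The share of all genes called under each alternative was not set beside the counts below. They therefore do not say whether the 10 genes moved more than the whole table. The numbers of genes called that moved by over 1.5 times are given first. With a minimum mean log2 of 0, which leaves 5 of the 10 genes, Mu-RE against KO at 26 weeks had 3 calls (5 in the values reported), WT at 26 against 10 weeks 0 (1), feeding in WT 1 (2), feeding in Mu-RE 2 (1) and the interactions 1 (2). With time as a factor, WT by age had 2, feeding in WT 1, feeding in Mu-RE 3 and the rhythm differences 0 (1). With medians subtracted, feeding in WT had 1. With the length slope, WT by age had 2, feeding in Mu-RE 0 and the correlations 11 (21). Smaller moves went up as well as down. Rhythms rose from 10 to 15 of 150 combinations with the length slope, and to 13 of 75 with the minimum mean. They were 12 with medians subtracted and 11 with no sex term or time as a factor. With the slope, KO against WT at 10 weeks rose to 6 (5) and Mu-RE against KO at 10 weeks to 4 (3). The interactions rose to 3 (2) with it. The correlations were 17 with 1 FPKM added. Leaving out mice gave 0 to 1 for WT by age, 1 to 2 for feeding in WT, 0 to 1 in Mu-RE, 0 to 1 in KO, 0 to 3 for the interactions, 5 to 10 for rhythms and 0 to 1 for rhythm differences.

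The replicate block left 1 call for feeding in WT (2 without it). Same-numbered mice had a median r of -0.05 to 0.16 over the contrasts. Pairs with r over 0.1 ranged from 3 of 23 (RE-RE against Br-RE at 10 weeks) to 18 of 24 (feeding in Old). Differently numbered mice were not compared in the same way, so a pairing or batch shared by number was not tested. Alternatives without 3 single libraries were chosen after seeing the data. Depth limits Asns, Trib3, Psat1 and Phgdh most.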
